A study of Mus musculus with 36 samples.

Results

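The genes examined were 10 mediators through which mesenchymal stem/stromal cells (MSCs) act on immune cells: Tnfaip6, Ptgs2, Ptges, Il6, Lif, Hgf, Nos2, Ido1, Il1rn and Cd274. They were chosen by name, as widely described MSC mediators, from the 24411 genes of the RNA-seq tables, and all 10 had a row there. The choice of these genes, and of the lists used below, was made with earlier results of these data known. The shares of all genes set beside them are therefore descriptions. Of the 10, 8 passed the filter on low counts and were among the 12509 genes tested. Nos2 and Ido1 did not pass it and are described by their counts. The cells were cultured MSCs from the femoral bone marrow (fBM-MSCs), vertebral bone marrow (vBM-MSCs), adipose tissue (A-MSCs) and lung (P-MSCs) of C57BL6/J mice 8 weeks of age. All 4 groups were wild-type cells grown in MesenCult medium on collagen I-coated dishes with a Rock inhibitor and used within 3 passages, and no cytokine or other stimulus is named for any group. Bone marrow was obtained by crushing the bones, whereas adipose tissue and lung were digested with collagenase, so the way of isolation and the marrow or non-marrow origin cannot be told apart. The labels give 3 RNA-seq libraries per tissue. All were analysed here except replicate 3 of vBM-MSCs, which leaves 2 of that tissue, and ATAC-seq had 1 pooled peak list per tissue. By the study's methods the 4 tissues were taken from 3 mice. No label ties a library to a mouse, so every library was treated as independent, and the p-values measure the spread between them.

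MSCs restrain inflammation mostly through secreted factors. Prostaglandin E2, made by the cyclooxygenase Ptgs2 and the synthase Ptges, and TSG-6, the hyaluronan-binding product of Tnfaip6, shift macrophages towards an anti-inflammatory state, and the IL-6 family cytokines Il6 and Lif, the growth factor Hgf and the IL-1 receptor antagonist Il1rn act on macrophages and lymphocytes. Nos2, which makes nitric oxide, and Ido1, which degrades tryptophan, are induced by interferon-gamma and TNF and curb T cells, Nos2 mainly in mouse MSCs and Ido1 mainly in human MSCs, and Cd274 encodes the checkpoint ligand PD-L1.

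The sequences just before the start site are shown for the 4 mediators with a promoter that held the same motif. RefSeq sequences of the build GRCm38.p6 were at hand for 8 of the 10 mediators. In the 250 bases before the start of the gene, the AP-1 motif TGACTCA was present, on either strand, in 4 of the 11 sequences of these 8 genes, those of Tnfaip6, Il6, Lif and the first of 3 starts of Il1rn. The same letters were present in 4.46% of all 32851 RefSeq promoters of this length. Capitals mark the AP-1 match in all 4 sequences. They also mark a match to the STAT motif TTCNNNGAA in Tnfaip6 and to the NF-kB motif in Il6 and Lif.
Tnfaip6 (chr2:52037863-52038112, plus strand): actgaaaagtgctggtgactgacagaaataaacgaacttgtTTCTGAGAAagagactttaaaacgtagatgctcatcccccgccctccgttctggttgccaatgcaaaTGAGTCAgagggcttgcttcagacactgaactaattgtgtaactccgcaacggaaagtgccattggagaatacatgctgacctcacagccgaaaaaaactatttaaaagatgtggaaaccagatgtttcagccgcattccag
Il6 (chr5:30012864-30013113, plus strand): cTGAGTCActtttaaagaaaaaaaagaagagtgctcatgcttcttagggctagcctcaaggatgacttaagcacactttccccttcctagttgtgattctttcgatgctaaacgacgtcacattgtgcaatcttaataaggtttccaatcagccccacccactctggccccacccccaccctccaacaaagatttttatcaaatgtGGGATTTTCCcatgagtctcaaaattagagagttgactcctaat
Lif (chr11:4257318-4257567, plus strand): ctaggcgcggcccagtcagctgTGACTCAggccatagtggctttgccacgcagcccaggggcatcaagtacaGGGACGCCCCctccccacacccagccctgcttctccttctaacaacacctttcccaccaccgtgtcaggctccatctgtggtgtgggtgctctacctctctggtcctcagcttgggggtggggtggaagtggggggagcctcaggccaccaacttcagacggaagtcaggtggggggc
Il1rn (chr2:24336610-24336859, plus strand): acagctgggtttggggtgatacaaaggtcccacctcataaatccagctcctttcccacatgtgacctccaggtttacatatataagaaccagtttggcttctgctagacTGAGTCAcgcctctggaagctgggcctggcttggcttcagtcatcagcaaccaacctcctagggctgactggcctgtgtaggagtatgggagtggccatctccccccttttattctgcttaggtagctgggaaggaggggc
The AP-1 match spanned −142 to −136 from the start in Tnfaip6 and −141 to −135 in Il1rn. The NF-kB motif of Il6, GGGATTTTCC, spanned −44 to −35, and that motif was present in 7.25% of all promoters. The STAT motif was present in 7.02% of all promoters. No match to these 3 motifs, the TATA box TATAAA or the CRE TGACGTCA was found in this window of Ptgs2, Ptges, Cd274, either start of Hgf or the other 2 starts of Il1rn. The TATA box and CRE letters were present in 12.4% and 1.55% of all promoters. The C/EBP motif TTGCGCAA, searched after the sequences had been seen, was found in Ptgs2 alone of the 8 genes, from −69 to −62, and in 0.164% of all promoters. Capitals mark it in the sequence of Ptgs2.
Ptgs2 (chr1:150099781-150100030, plus strand): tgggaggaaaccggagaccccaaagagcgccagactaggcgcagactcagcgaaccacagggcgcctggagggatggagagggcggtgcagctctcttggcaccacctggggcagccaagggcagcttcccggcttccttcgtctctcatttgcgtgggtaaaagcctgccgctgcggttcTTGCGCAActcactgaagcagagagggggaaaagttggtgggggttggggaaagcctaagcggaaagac
A match of letters is a description and does not show that a factor binds.

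Expected counts summed to between 19569650 and 40517739 per library. Before the mediators are described, the labelled cell type was checked against its markers. The 9 MSC surface markers were detected in every tissue, with a summed level of 1095 to 2521 TPM (a transcript level scaled for transcript length and library size). Among them, Pdgfra was low in fBM-MSCs, at 0.27 to 0.76 TPM, against 5.74 to 7.93 TPM in A-MSCs and P-MSCs. Nt5e, named after its values were seen, went the other way, at 9.61 to 45.6 TPM in fBM-MSCs, 0.29 to 0.86 TPM in A-MSCs and 0 to 0.48 TPM in P-MSCs. Markers of other cell types were not uniformly low. The leukocyte marker Ptprc reached at most 0.35 TPM in any library, while the neutrophil marker S100a8 reached 15.4 TPM in an A-MSC library and 10.2 TPM in an fBM-MSC library. The other neutrophil markers did not follow S100a8, with S100a9 at most 0.15 TPM, Elane at most 0.07 TPM and Mpo at most 0.39 TPM in any library. Of the epithelial markers, Epcam reached at most 0.41 TPM, while in A-MSCs Krt14 was at 2.96 to 5.4 TPM and Cldn4 at 0 to 9.02 TPM. The 10 endothelial markers summed to 9.57 to 64.5 TPM in A-MSCs and 4.07 to 15.8 TPM in the other tissues. They did not move together. In A-MSCs Emcn was at 2.32 to 49.5 TPM and Pecam1 at 0.28 to 3.84 TPM, whereas Cdh5 reached at most 1.05 TPM, Tie1 at most 0.24 TPM and Vwf at most 0.05 TPM, and Cldn5 was at 0. Kdr was highest in P-MSCs, at 2.33 to 2.84 TPM. Mesothelial markers were present in A-MSCs, where all 10 averaged at least 1 TPM and summed to 137 to 189 TPM, against 77.3 to 100 TPM in P-MSCs, 18.9 to 24.9 TPM in vBM-MSCs and 2.87 to 15.2 TPM in fBM-MSCs. In bulk RNA, fewer cells that express a gene and less RNA per cell cannot be told apart.

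Of the 8 tested mediators, 6 differed among the 4 tissues at an adjusted p under 0.05 (edgeR quasi-likelihood test): Il6, Il1rn, Lif, Ptgs2, Tnfaip6 and Ptges. This share is to be read against the 60.6% of all tested genes that differed among the tissues. The 6 did not share an order of tissues. Il6, Tnfaip6 and Ptgs2 were highest in A-MSCs, Ptges, Lif and Il1rn were highest in vBM-MSCs, and none of the 6 was highest in fBM-MSCs or P-MSCs.

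**Figure D1:**
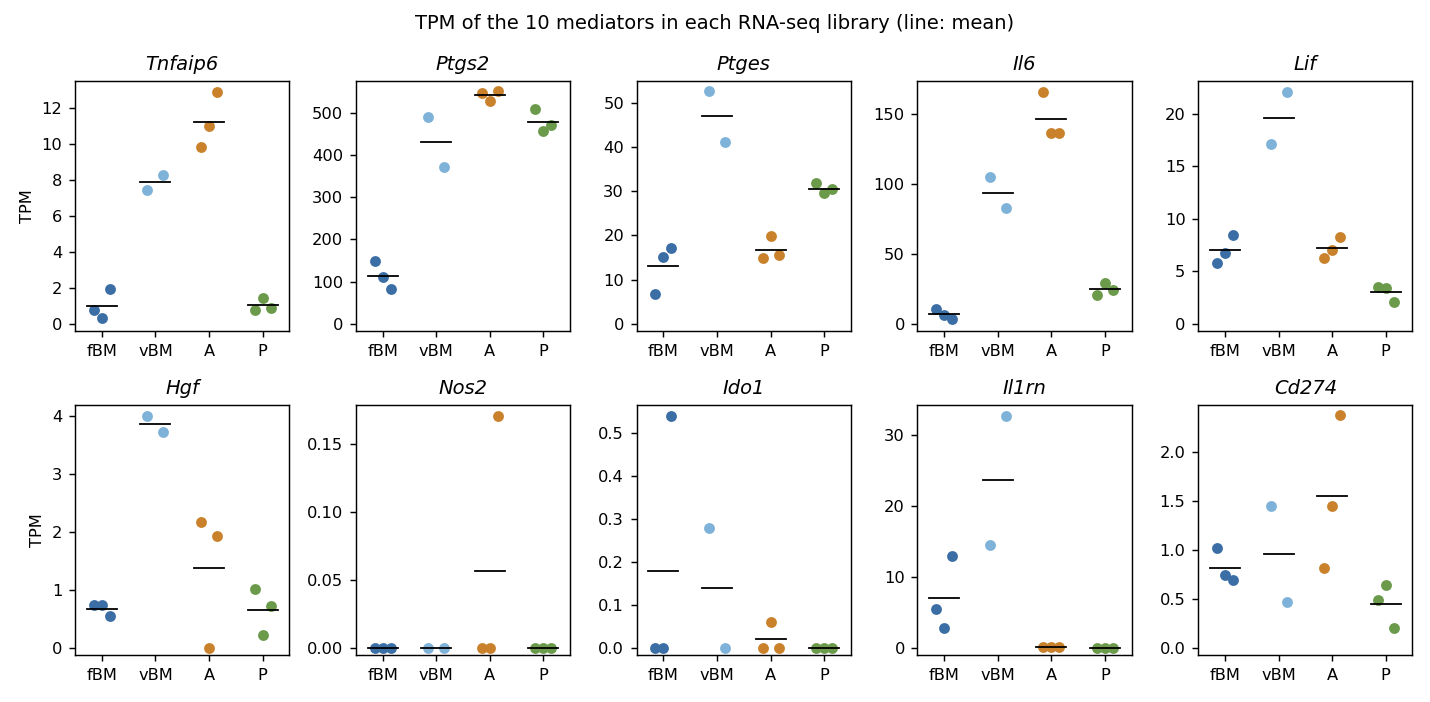
TPM of each of the 10 mediators (panels, each with its own linear vertical axis) in fBM-MSCs, vBM-MSCs, A-MSCs and P-MSCs, where each point is 1 library (n = 3, 2, 3 and 3) and the line is the mean. Il6 and Tnfaip6 are high in vBM-MSCs and A-MSCs, Il1rn is present only in the marrow groups apart from at most 0.12 TPM in A-MSCs, and Nos2 and Ido1 stay under 1 TPM in all libraries.

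Ptgs2, the inducible cyclooxygenase and first committed step to prostaglandin E2, had the highest level of the 10 in every tissue. Its TPM was 148, 111 and 83.7 in the fBM-MSC libraries and 490 and 372 in the vBM-MSC libraries. In A-MSCs it was 546, 528 and 551 TPM and in P-MSCs 508, 457 and 470 TPM. All fBM-MSC libraries lay below all others, and those of the other 3 tissues lay between 372 and 551 TPM. Ptgs2 was 3.69-fold lower in fBM-MSCs than in vBM-MSCs (log2 fold change −1.88, SE 0.22, adjusted p = 0.000374), 4.96-fold lower than in A-MSCs (adjusted p = 1.1e-05) and 3.83-fold lower than in P-MSCs (adjusted p = 1.86e-05). Between neighbours in the order A-MSCs, P-MSCs and vBM-MSCs, no difference passed the threshold (adjusted p = 0.175 and 0.867).

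Ptges, the membrane synthase that turns the cyclooxygenase product into prostaglandin E2, followed another order. The TPM was 6.8, 15.2 and 17.1 in fBM-MSCs, 52.6 and 41.2 in vBM-MSCs, 14.9, 19.8 and 15.6 in A-MSCs, and 31.8, 29.5 and 30.4 in P-MSCs. The ranges of fBM-MSCs and A-MSCs overlapped, whereas vBM-MSCs lay above and P-MSCs between them without overlap. Ptges was higher in vBM-MSCs than in fBM-MSCs by 3.54-fold (adjusted p = 0.00264) and than in A-MSCs by 2.61-fold (adjusted p = 0.00541), and it was 2.16-fold lower in fBM-MSCs than in P-MSCs (adjusted p = 0.00501). The steps from vBM-MSCs to P-MSCs and from P-MSCs to A-MSCs did not pass (adjusted p = 0.073 and 0.0746), although the ranges were apart. They passed in 4 and 6 of 19 alternatives of the processing, respectively. Thus A-MSCs held the highest mean of Ptgs2, 542 ± 11.98 TPM (SD, n = 3), with a Ptges mean of 16.8 ± 2.68 TPM (n = 3), and vBM-MSCs the highest mean of Ptges, 46.9 ± 8.08 TPM (n = 2).

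Il6, an inflammatory cytokine that MSCs release in large amounts and that acts with prostaglandin E2 on macrophages, was expressed in every library and differed widely between tissues. It reached 10.4, 6.72 and 3.83 TPM in fBM-MSCs and 105 and 82.5 TPM in vBM-MSCs. In A-MSCs it reached 165, 136 and 136 TPM, and in P-MSCs 20.6, 28.9 and 24.5 TPM. No ranges overlapped, and the order was A-MSCs, vBM-MSCs, P-MSCs and fBM-MSCs. The fold between A-MSCs and fBM-MSCs was 22.7 (log2 fold change of fBM-MSCs against A-MSCs −4.50, SE 0.33, adjusted p = 2.94e-06), and fBM-MSCs were 13.5-fold below vBM-MSCs (log2 −3.75, SE 0.33, adjusted p = 7.36e-05) and 3.30-fold below P-MSCs (adjusted p = 0.000673). The difference between A-MSCs and vBM-MSCs did not pass (adjusted p = 0.102). It passed in 3 of 19 alternatives of the processing, among them a fit of these groups only (adjusted p = 0.0313).

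Lif, which signals through the same receptor subunit as Il6 and favours regulatory T cells, was highest in vBM-MSCs. The TPM was 17.1 and 22.1 there, 5.83, 6.76 and 8.44 in fBM-MSCs, 6.28, 7.03 and 8.29 in A-MSCs, and 3.52, 3.42 and 2.13 in P-MSCs. The fBM-MSC and A-MSC libraries overlapped and lay between the other groups. Lif was 2.69-fold lower in fBM-MSCs than in vBM-MSCs (adjusted p = 0.00289) and 6.79-fold higher in vBM-MSCs than in P-MSCs (log2 2.76, SE 0.24, adjusted p = 8.66e-06). Between fBM-MSCs and A-MSCs the log2 fold change was −0.11 (SE 0.21, adjusted p = 0.713).

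Tnfaip6 encodes TSG-6, which binds hyaluronan and dampens leukocyte migration and macrophage activation. Its TPM was 0.77, 0.34 and 1.93 in fBM-MSCs and 0.8, 1.47 and 0.91 in P-MSCs. It was 7.45 and 8.31 in vBM-MSCs and 9.86, 11 and 12.9 in A-MSCs. The 4 tissues fell into a low pair, whose ranges overlapped, and a high pair, in which all A-MSC libraries lay above the vBM-MSC libraries. Tnfaip6 was 7.35-fold lower in fBM-MSCs than in vBM-MSCs (log2 −2.88, SE 0.55, adjusted p = 0.00687) and 12.2-fold higher in A-MSCs than in P-MSCs (log2 3.61, SE 0.53, adjusted p = 0.00062). Within the low and the high pair the adjusted p was 0.893 and 0.417. The counts behind the low values were 10 to 68 per library.

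Hgf, a growth factor that limits dendritic cell and T cell activation, was low and uneven. The libraries held 14, 35 and 35 counts in fBM-MSCs, 147 and 193 in vBM-MSCs, 90, 0 and 91 in A-MSCs, and 71, 11 and 44 in P-MSCs. As TPM this was 0.55 to 0.73, 3.73 to 4.0, 0 to 2.18 and 0.21 to 1.02, respectively. The vBM-MSC libraries were the highest and overlapped with no other group, and replicate 2 of the A-MSCs was the only library at 0. No comparison of Hgf passed the threshold (adjusted p among the tissues 0.202). Without replicate 2 of the A-MSCs it was called among the tissues, and it was lower in fBM-MSCs than in vBM-MSCs (log2 −2.47, adjusted p = 0.0277) and higher in vBM-MSCs than in P-MSCs (log2 2.31, adjusted p = 0.0122).

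Il1rn, a decoy ligand that blocks the IL-1 receptor, separated marrow from non-marrow MSCs. It reached 5.46, 2.75 and 12.8 TPM in fBM-MSCs and 14.5 and 32.6 TPM in vBM-MSCs. A-MSCs had 0.06, 0.12 and 0.1 TPM, from 3, 7 and 6 counts, and all 3 P-MSC libraries had 0 counts. Every marrow library lay above every other library, and the 2 marrow groups did not overlap. Relative to 16 counts in A-MSCs, Il1rn was 80.7-fold higher in fBM-MSCs (95% counting interval 49.5 to 141.8) and 251-fold higher in vBM-MSCs (154 to 440). Against P-MSCs it was at least 418-fold higher in fBM-MSCs and at least 1302-fold higher in vBM-MSCs, taking 3 counts over the group as the floor. Single libraries weigh on these values, since replicate 3 held 748 of the 1048 counts of fBM-MSCs and replicate 2 held 1770 of the 2427 of vBM-MSCs. Without the former the fold of fBM-MSCs was 39.8 against A-MSCs and at least 206 against P-MSCs. Without the latter the fold of vBM-MSCs was 149 and at least 773. These intervals and floors cover counting error only. In the fit across all genes the adjusted p was 0.000149 for fBM-MSCs against A-MSCs and 2.99e-05 against P-MSCs. The difference between fBM-MSCs and vBM-MSCs did not pass (log2 −1.66, SE 0.55, adjusted p = 0.0799), and it passed in 6 of 19 alternatives, among them leaving out replicate 3 of the fBM-MSCs (log2 −2.44, adjusted p = 0.00908).

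Macrophages also make Il1rn, so their markers are given beside it. By the study's methods the cultures held MesenPure, a supplement that reduces haematopoietic cells, and the cells were stained by flow cytometry for CD45, a marker of leukocytes, among the surface proteins that MSCs lack. The 16 macrophage markers summed to 40.8 to 52.4 TPM in fBM-MSCs, 24.7 to 46.5 TPM in vBM-MSCs, 19.6 to 28.2 TPM in A-MSCs and 16.0 to 17.3 TPM in P-MSCs. Most of the sum in the marrow groups was Lyz2, at 19.8 to 38.6 TPM. Of the 16, 8 were at 0 in all fBM-MSC libraries and 7 in all vBM-MSC libraries, among them Adgre1, Itgam, C1qa and C1qb in both, and Ptprc was at most 0.1 TPM there. The 3 markers named by the rule did not move together. Lyz2 was higher in marrow than in non-marrow MSCs (log2 2.65, adjusted p = 9.31e-06), as Il1rn was. Cd68 was at 12.3 to 18.5 TPM in fBM-MSCs, higher than in vBM-MSCs (adjusted p = 0.00305), A-MSCs (adjusted p = 0.0195) and P-MSCs (adjusted p = 0.0294), and in vBM-MSCs, where Il1rn was highest, it was at 0.87 to 2.72 TPM. Csf1r was lower in marrow than in non-marrow MSCs (log2 −2.24, adjusted p = 1.75e-05). The part of macrophage RNA in the difference of Il1rn was not tested.

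Cd274, the PD-L1 gene, was low in all tissues, with 17 to 211 counts per library. The TPM was 1.02, 0.74 and 0.69 in fBM-MSCs, 1.45 and 0.47 in vBM-MSCs, 0.82, 1.45 and 2.38 in A-MSCs, and 0.49, 0.64 and 0.2 in P-MSCs. All A-MSC libraries lay above all P-MSC libraries, and the vBM-MSC range overlapped with every other group. The test among the tissues did not pass (adjusted p = 0.0793). Between A-MSCs and P-MSCs Cd274 was 3.99-fold higher in A-MSCs (log2 1.997, SE 0.63, adjusted p = 0.0322), and this was not called without either of replicates 2 and 3 of the A-MSCs or replicates 1 and 3 of the P-MSCs (adjusted p up to 0.132). With the replicate number as a block in the model it was not called either (log2 2.04, adjusted p = 0.058).

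Nos2 had 0 counts in 10 of 11 libraries, and replicate 3 of the A-MSCs had 17 counts (0.17 TPM). Ido1 had 20 counts in replicate 3 of the fBM-MSCs (0.54 TPM), 8 in replicate 1 of the vBM-MSCs and 2 in replicate 2 of the A-MSCs, and 0 in the other 8 libraries. Both enzymes were thus at or close to 0 in these MSCs, for which no stimulus is named. Most counts of each came from 1 library, so no difference between tissues is read from them.

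The comparison within the bone marrow asks whether MSCs from the femur and from the vertebrae differ in these mediators. Of the 8 tested, 5 were lower in fBM-MSCs (Il6, Tnfaip6, Ptgs2, Ptges and Lif) and none was higher. Among all tested genes 12.8% differed in this comparison and 7.56% were lower in fBM-MSCs. The median log2 fold change of the 8 was −1.85, against 0.02 over all tested genes. All 8 had a fitted value below 0, and Il1rn (adjusted p = 0.0799), Hgf (adjusted p = 0.196) and Cd274 (adjusted p = 0.864) did not pass. In a fit of these 5 libraries alone, Il6, Ptgs2 and Lif were called, whereas Tnfaip6 (adjusted p = 0.0933) and Ptges (adjusted p = 0.0559) were not.

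Between the non-marrow groups, 5 of the 8 were higher in A-MSCs than in P-MSCs: Tnfaip6, Il6 (6.86-fold, adjusted p = 8e-05), Lif (2.72-fold, adjusted p = 0.000739), Cd274 and Il1rn. Over all tested genes 30.9% differed and 16% were higher in A-MSCs. The call of Il1rn rests on 16 counts against 0, a ratio of at least 5.18 (adjusted p = 0.0447). It was not called without any 1 of the A-MSC or P-MSC libraries, nor without replicate 1 of the fBM-MSCs (adjusted p = 0.0575 to 0.102). Ptgs2 and Ptges did not pass, with log2 fold changes of 0.37 (SE 0.20) and −0.67 (SE 0.26). In a fit of the A-MSC and P-MSC libraries only, both passed, Ptgs2 higher (adjusted p = 0.000333) and Ptges lower (adjusted p = 0.000674) in A-MSCs, Il1rn was not called, and 44.7% of all genes were called. The median log2 fold change of the 8 was 1.72, also with Il1rn at its bound, and −0.01 over all genes. The mesothelial markers, higher in A-MSCs than in P-MSCs in 9 of 10 cases, moved with these genes, and their part in the result was not tested.

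**Figure D2:**
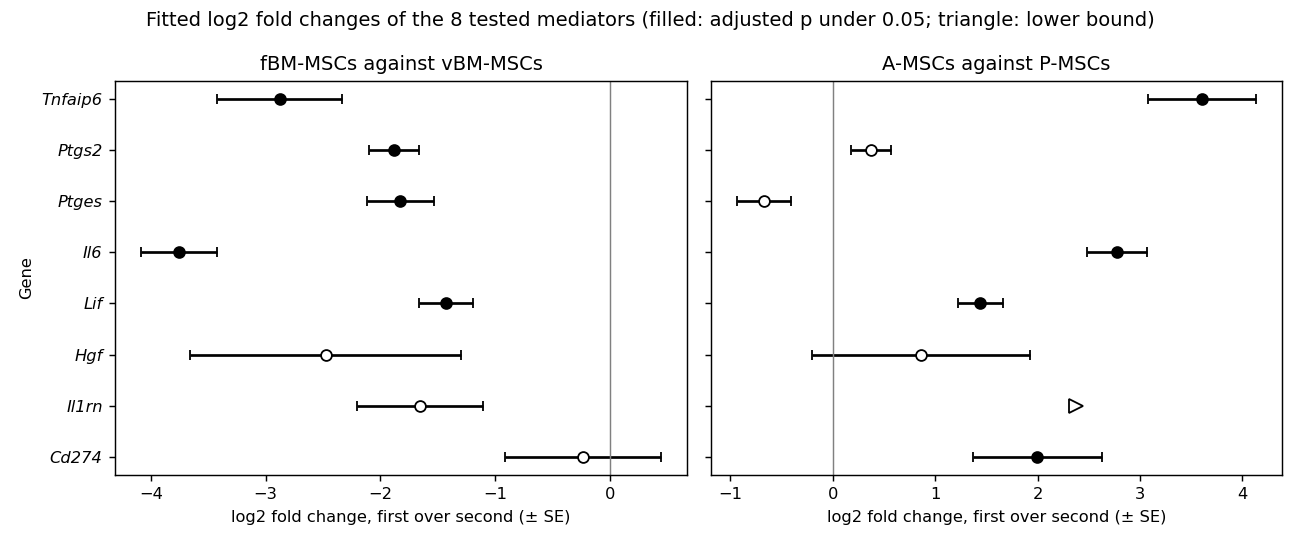
Fitted log2 fold changes with their standard errors for the 8 tested mediators, for fBM-MSCs against vBM-MSCs (left) and A-MSCs against P-MSCs (right). Filled points passed the adjusted p of 0.05, and the open triangle is the lower bound of Il1rn against P-MSCs, whose libraries had no count (it passed as well, adjusted p = 0.0447). All points of the left panel lie below 0, and on the right only Ptges does.

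The remaining contrasts share libraries with those above, and their values are given side by side. Marrow against non-marrow MSCs gave 4 calls of 8, with Il1rn (adjusted p = 3.06e-06) and Lif (2.51-fold, adjusted p = 4.47e-05) higher and Il6 (2.36-fold, adjusted p = 0.000709) and Ptgs2 (2.27-fold, adjusted p = 7.56e-05) lower in marrow MSCs, where 47.2% of all genes were called. For Il6 the fBM-MSC libraries lay below and the vBM-MSC libraries above those of P-MSCs, so the marrow mean joins unlike groups. The same holds for Ptgs2, which was lower in fBM-MSCs than in each other tissue, while vBM-MSCs were not called against A-MSCs (adjusted p = 0.187) or P-MSCs (adjusted p = 0.867). For Lif, too, fBM-MSCs were lower than vBM-MSCs (adjusted p = 0.00289) and were not called against A-MSCs (adjusted p = 0.7125). Against A-MSCs, fBM-MSCs had 4 calls of 8, Il1rn higher and Il6, Ptgs2 and Tnfaip6 lower, with 40.9% of all genes called. Against P-MSCs, fBM-MSCs had 5 of 8, Il1rn and Lif higher and Il6, Ptges and Ptgs2 lower, with 47.7% of all genes called. In vBM-MSCs, 3 of 8 were higher than in A-MSCs (Il1rn, Lif and Ptges) and none lower, where 25.6% of all genes were called and 13.2% were higher in vBM-MSCs. Against P-MSCs, 4 of 8 were higher in vBM-MSCs (Il1rn, Il6, Lif and Tnfaip6) and none lower, where 38.7% of all genes were called and 21% were higher in vBM-MSCs.

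Further genes of the same pathways were taken from lists by function. In the list of partners of TSG-6 and the hyaluronan matrix, 5 of 9 tested genes were lower in fBM-MSCs than in vBM-MSCs (7.56% of all tested genes were) and none was higher. Ptx3, a pentraxin that TSG-6 binds, was at 9.31 ± 3.61 TPM in fBM-MSCs (n = 3), 176 ± 58.5 in vBM-MSCs (n = 2), 37.4 ± 2.28 in A-MSCs (n = 3) and 10.3 ± 3.24 in P-MSCs (n = 3), with a log2 fold change of −4.21 between the marrow groups (adjusted p = 6.29e-05). The proteoglycan Vcan (log2 −1.999, adjusted p = 0.000273) and the hyaluronan receptor Hmmr (log2 −0.99, adjusted p = 0.0168) were also lower in fBM-MSCs. Between A-MSCs and P-MSCs, 1 gene of this list was higher and 1 lower in A-MSCs, Ptx3 (log2 2.04, adjusted p = 0.000899) and Hmmr (log2 −1.73, adjusted p = 0.000154). Over all tested genes 30.9% were called in this comparison.

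Of the IL-6 and LIF family, 8 of 14 tested genes were higher in A-MSCs than in P-MSCs (16% of all tested genes were) and none was lower. Between the marrow groups, 4 were lower and 1 was higher in fBM-MSCs, where 12.8% of all genes were called in either direction. The cytokine Clcf1 and the oncostatin M receptor Osmr were lower in fBM-MSCs than in vBM-MSCs (log2 −2.46 and −1.67, adjusted p = 0.000307 and 0.00205) and higher in A-MSCs than in P-MSCs (log2 1.499 and 2.41, adjusted p = 0.00132 and 5.96e-05). Lifr, the receptor of Lif, went the other way from its ligand between the marrow groups, with 15.02 ± 10.3 TPM in fBM-MSCs (n = 3) and 4.38 ± 3.58 in vBM-MSCs (n = 2) (log2 2.28, adjusted p = 0.0191).

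The prostaglandin list held 12 tested genes, of which 2 were higher and none lower in fBM-MSCs than in vBM-MSCs, and 5 were higher and 2 lower in A-MSCs than in P-MSCs. Over all tested genes 12.8% and 30.9% were called in these comparisons. Pla2g4a, the phospholipase that frees arachidonic acid, was highest in P-MSCs, at 200 ± 14.96 TPM against 52 to 66.5 TPM as the means of the other tissues. Ptgs1, the constitutive cyclooxygenase, was highest in P-MSCs as well, at 123 ± 5.98 TPM (n = 3), and its log2 fold change in A-MSCs against P-MSCs was −0.95 (adjusted p = 0.0015). Ptger4, a prostaglandin E2 receptor, was lowest there, at 1.81 ± 1.10 TPM against 18.0 ± 2.05 TPM in A-MSCs (log2 of A-MSCs against P-MSCs 3.49, adjusted p = 5.43e-05).

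Among the 6 tested genes of the IL-1 family and its receptors, 2 were lower in fBM-MSCs than in vBM-MSCs (7.56% of all tested genes were), the signalling receptor Il1r1 (log2 −1.80, adjusted p = 0.00179) and its partner Il1rap (log2 −2.20, adjusted p = 0.000311). In A-MSCs 4 of the 6 were higher and 1 lower than in P-MSCs, beside 30.9% of all tested genes. The mean of Il1r1 was 1.68 TPM for fBM-MSCs and 5.95 TPM for vBM-MSCs, against 10.9 TPM for A-MSCs and 5.06 TPM for P-MSCs, so that the receptor was present in the non-marrow groups where its antagonist Il1rn was at or near 0. Casp1, which matures IL-1 beta, differed among the tissues (adjusted p = 0.00232) and averaged 11.7 TPM in fBM-MSCs and 0.13 TPM in P-MSCs. In the list of HGF activators and its receptor, Met, the receptor of Hgf, averaged 0.733 TPM in fBM-MSCs and 3.72 TPM in P-MSCs, and the protease Plau was lower in fBM-MSCs than in vBM-MSCs (log2 −1.24, adjusted p = 0.00274). Here 2 of 7 tested genes were lower in fBM-MSCs than in vBM-MSCs, and 2 of 7 were higher in A-MSCs than in P-MSCs, where 12.8% and 30.9% of all tested genes were called in either direction. The latter share is close to that of the list.

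For nitric oxide, arginine and tryptophan metabolism, 7 of 15 genes were tested, 1 was lower in fBM-MSCs than in vBM-MSCs (the arginine transporter Slc7a1, log2 −0.71, adjusted p = 0.0125) and 4 were higher in A-MSCs than in P-MSCs, among them Ass1, which recycles arginine (log2 1.38, adjusted p = 0.000352). The shares of all tested genes called lower in fBM-MSCs and higher in A-MSCs were 7.56% and 16%. Of the B7 family and other checkpoint ligands, 4 of 11 were tested. The galectin Lgals9 averaged 176 to 361 TPM and was lower in fBM-MSCs than in vBM-MSCs (log2 −0.82, adjusted p = 0.00626), and Cd276 averaged 25.3 TPM in fBM-MSCs and 6.58 TPM in A-MSCs. Per transcript length, these levels exceeded those of Cd274 in every tissue. Cd200, a ligand that restrains myeloid cells, was higher in marrow than in non-marrow MSCs (adjusted p = 4.68e-06), with 16.3 to 61.1 TPM in fBM-MSCs, 6.2 to 12.5 TPM in vBM-MSCs and at most 0.72 TPM in any A-MSC or P-MSC library.

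The 18 receptors and factors upstream of the mediators were all tested, and 2 were higher and 2 lower in fBM-MSCs than in vBM-MSCs, beside 12.8% of all tested genes called. A-MSCs exceeded P-MSCs in 8 of them and were lower in 2, beside 30.9% of all tested genes called, with the NF-kB subunit Relb at 23.1 ± 4.85 and 8.26 ± 0.163 TPM (log2 1.68, adjusted p = 4.64e-05). Tnfrsf1a, the main TNF receptor, averaged 64.5 to 117 TPM across the tissues, and Ifngr2, a subunit of the interferon-gamma receptor, 88 to 171 TPM. Of 17 tested other immunoregulators, 1 was higher and 2 lower in fBM-MSCs than in vBM-MSCs, again beside 12.8% of all tested genes. In A-MSCs 8 of the 17 were higher and 4 lower than in P-MSCs, beside 30.9% of all tested genes. The haem oxygenase Hmox1 averaged 4213 TPM in fBM-MSCs and 1459 TPM in P-MSCs, and the galectin Lgals3 was at 996 ± 127 TPM in fBM-MSCs against 124 ± 65.9 TPM in vBM-MSCs (log2 3.09, adjusted p = 5.31e-05), opposite in direction to the 5 called mediators. Sod3, an extracellular antioxidant enzyme, averaged 106 and 127 TPM in the marrow groups and 15.5 and 5.26 TPM in A-MSCs and P-MSCs.

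**Figure D3:**
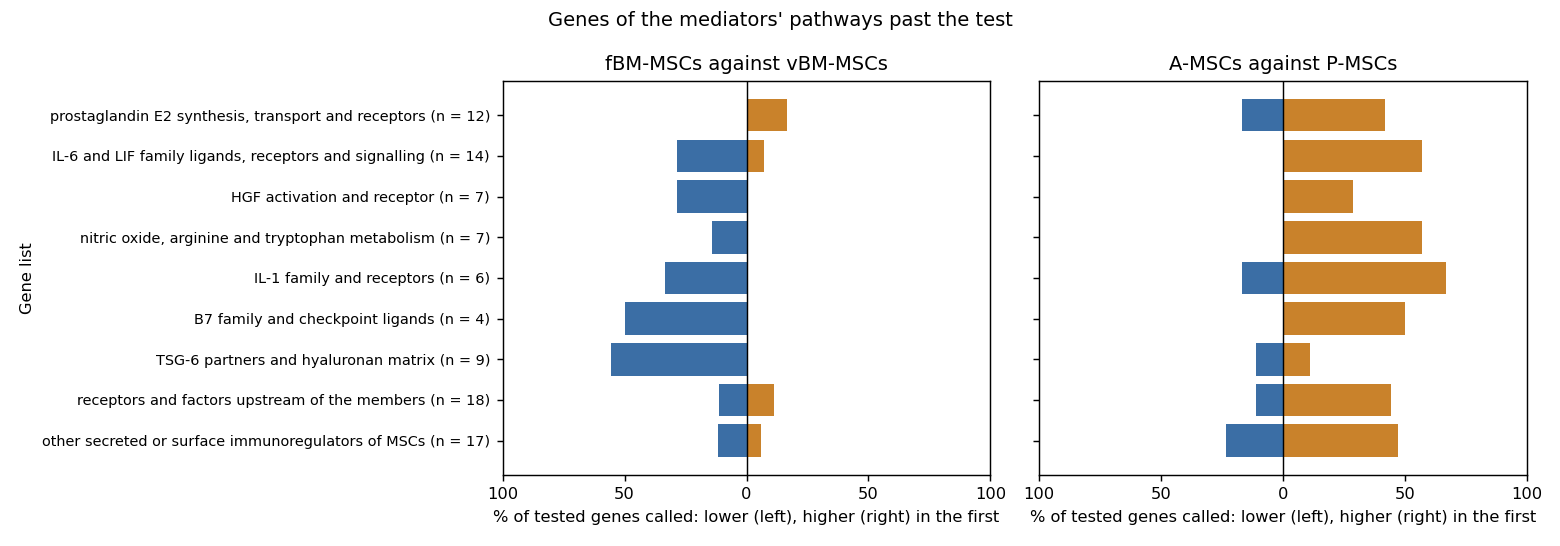
Share of the tested genes of 9 pathway lists (rows, n in brackets) called lower (blue, left of 0) or higher (orange, right of 0) in fBM-MSCs than in vBM-MSCs and in A-MSCs than in P-MSCs. The hyaluronan list has 5 of 9 genes lower in fBM-MSCs, and the IL-6 and LIF list 8 of 14 higher in A-MSCs.

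The genes whose pattern was most like that of a mediator were found by Pearson's r of log2(TPM + 1) over the 11 libraries, given as a description. Tnfaip6 was followed most closely by Kdelr3 (r = 0.978) and Osmr (r = 0.973), Ptgs2 by Mrps6 and F3 (both r = 0.985) and Il6 by Actg2 (r = 0.973) and Dstn (r = 0.971). Lif was nearest to Shc1 (r = 0.973) and Vasn (r = 0.966), Ptges to Arfgap1 (r = 0.942) and Zfp235 (r = 0.927), and Hgf to Pik3r6 (r = 0.901) and Cend1 (r = 0.892). The nearest to Il1rn were Col10a1 (r = 0.988), the collagen of hypertrophic cartilage, and Pamr1 (r = 0.980), which averaged 3.79 and 14.98 TPM in fBM-MSCs, 9.16 and 35.2 TPM in vBM-MSCs, and under 1 TPM in A-MSCs and P-MSCs. The points share tissues and libraries, so groups of tissues set these values.

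ATAC-seq marks accessible DNA by insertion of a transposase. Summits of the pooled lists were counted at a −log10 q of at least 7, which left 59536 to 71345 summits per tissue on chromosomes 1 to 19, and their height is the fold enrichment over the genome-wide background. The lists have no replicates and are not normalised to each other, so no difference between them was tested. A summit lay within 1 kb of a start site for 8 of the 10 mediators in the fBM-MSC list, 6 in the vBM-MSC list and 7 in each of the others. The shares of all 11519 genes that were tested by RNA-seq and had a start site on these chromosomes were 87.1%, 89.0%, 89.6% and 88.8%. Tnfaip6, Ptgs2, Il6, Lif and Ido1 had such a summit in all 4 lists, and Ptges in none.

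Ptgs2 (chr1:150100031-150108234, plus strand) had the highest promoter summit of the 10 in the fBM-MSC, A-MSC and P-MSC lists. In the vBM-MSC list those of Tnfaip6 and Ido1 were higher. The fold enrichment at −13 bases from the start was 33.8 in P-MSCs, and the promoter maxima were 29.1 in A-MSCs, 20.6 in fBM-MSCs and 15.1 in vBM-MSCs. Within 10 kb of the gene, A-MSCs had 17 and P-MSCs 22 summits, against 3 in fBM-MSCs and 6 in vBM-MSCs, where the median gene had 3 to 4. Many of these summits shared a broad peak. Counted as regions merged over the lists, there were 7 in A-MSCs and 8 in P-MSCs, against 3 in each marrow list. A region at −2158 bases from the start, outside the gene, passed the threshold in A-MSCs (fold enrichment 6.25) and P-MSCs (10.7). The vBM-MSC list held a summit there under the threshold (fold enrichment 4.78, −log10 q 5.36), and the fBM-MSC list held none. The order of these heights was not that of the transcript, since vBM-MSCs had the lowest promoter summit and a mean of 431 TPM.

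For Tnfaip6 (chr2:52038113-52056681, plus strand) the promoter summit was 19.1 in A-MSCs, 16.6 in vBM-MSCs, 14.0 in P-MSCs and 11.8 in fBM-MSCs, so at the promoter the pair of tissues with the higher transcript levels also had the higher summits. A region at −6480 bases from the start was listed in fBM-MSCs, vBM-MSCs and A-MSCs, with its highest fold enrichment, 8.46, in A-MSCs. In P-MSCs a summit there had a −log10 q of 6.28, just under the threshold. A region 17650 bases after the start, in an intron, was listed in A-MSCs only (fold enrichment 14.0). A region 19213 bases after the start, past the end of the gene, did not follow the transcript, being listed in A-MSCs (18.0), P-MSCs (9.93) and fBM-MSCs (6.25) and not in vBM-MSCs.

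Il6 (chr5:30013114-30019975, plus strand) had 1 region, around its start, in all 4 lists. Its maxima were 13.6 for A-MSCs, 12.1 for P-MSCs, 11.4 for vBM-MSCs and 10.7 for fBM-MSCs, a span of heights far narrower than the 22.7-fold range of the transcript. Lif (chr11:4257568-4272514, plus strand) had 2 regions shared by all lists. The summit of one lay 9182 bases after the first start, next to a second start inside the gene, at a fold enrichment of 5.52 to 7.73. The other was higher in every list and lay beyond the end of the gene, 19095 bases after the first start, at 6.25 for P-MSCs, 10.7 for A-MSCs, 13.6 for vBM-MSCs and 14.0 for fBM-MSCs. Near the first start itself a summit passed the threshold in fBM-MSCs (fold enrichment 6.62), and the P-MSC list held one under the threshold (4.05, −log10 q 3.76).

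Il1rn (chr2:24336860-24351491, plus strand) had a promoter summit in fBM-MSCs (6.25), A-MSCs (7.73) and P-MSCs (6.99), although the transcript was at 0 in P-MSCs and nearly so in A-MSCs. In vBM-MSCs, which had the highest transcript level, the promoter summit (4.78) had a −log10 q of 5.36 and did not reach the threshold. A region in an intron 4798 bases after the start did not follow the transcript either, passing the threshold in A-MSCs (9.57) and fBM-MSCs (5.89) and not in vBM-MSCs. A region at −1365 bases from the start was listed in both marrow lists, with a fold enrichment of 10.3 in fBM-MSCs and 5.52 in vBM-MSCs. The vBM-MSC summit had a −log10 q of 7.13, just past the threshold, and the 2 heights ran against the order of the transcript. No summit was listed there in A-MSCs or P-MSCs at any q. The 201 bases of this region around the fBM-MSC summit are shown because it was listed in both groups with the transcript, although in vBM-MSCs only narrowly. Capitals mark the match of this upstream window to the NF-kB motif, which lay 20 bases after its summit and was present in 5.54% of the windows of this length around the 64300 summits of fBM-MSCs.
Il1rn upstream summit (chr2:24335395-24335595, plus strand): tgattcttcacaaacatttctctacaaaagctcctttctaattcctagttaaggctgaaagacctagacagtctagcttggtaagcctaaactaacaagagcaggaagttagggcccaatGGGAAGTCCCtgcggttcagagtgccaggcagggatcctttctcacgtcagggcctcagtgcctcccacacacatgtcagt
No AP-1 motif was found in this window, while 28.1% of those windows held one.

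**Figure D4:**
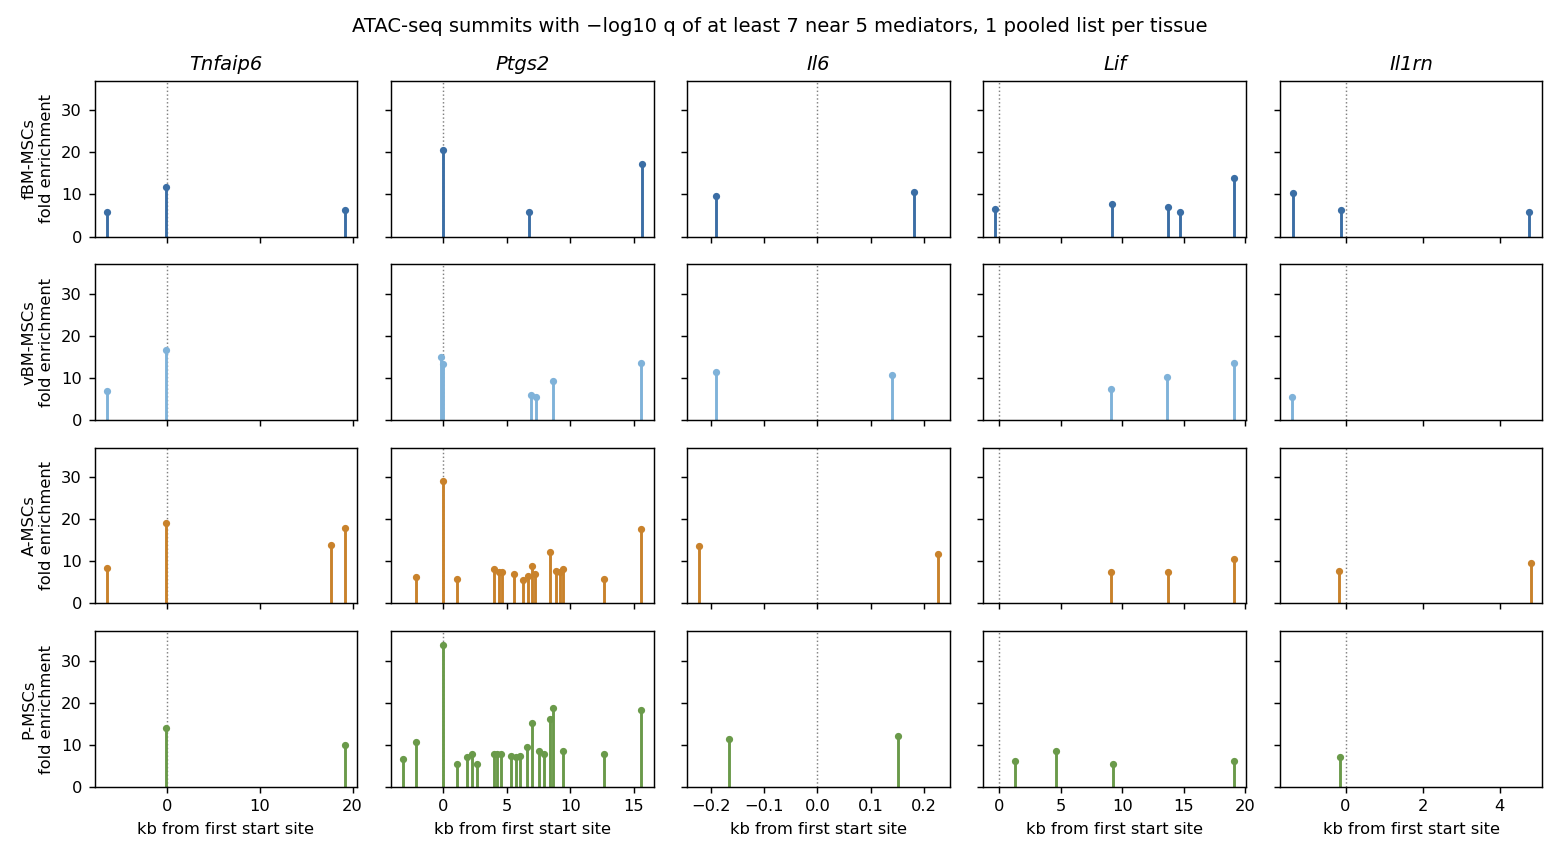
Fold enrichment of ATAC-seq summits with a −log10 q of at least 7 (vertical axis, the same in all panels) against the distance in kb from the first start site (horizontal axis, its own range per gene) for Tnfaip6, Ptgs2, Il6, Lif and Il1rn (columns) in the 4 pooled lists (rows). Ptgs2 has 17 and 22 summits, in 7 and 8 regions, in A-MSCs and P-MSCs, and the summit 1.4 kb before Il1rn appears in the marrow rows.

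The mediators with little or no transcript were not all without summits. Ido1 had a summit in all lists, with a fold enrichment of 15.5 in vBM-MSCs, 12.5 in A-MSCs, 11.04 in P-MSCs and 6.25 in fBM-MSCs. Nos2 had a promoter summit in fBM-MSCs (5.52), where it had 0 counts, and none past the threshold in the other lists. Hgf had a promoter summit in vBM-MSCs (5.89), the tissue with its highest counts, and the A-MSC list held one under the threshold (4.78, −log10 q 5.46). Cd274 had one past the threshold in fBM-MSCs, A-MSCs and P-MSCs, and in all 4 lists a stronger summit at about −5529 bases from its curated start, at 15.1 to 19.9. In P-MSCs this summit, at chr19:29361909, lay just before the annotated extent of the gene (chr19:29362107-29388095). Plgrkt overlaps this locus, and to which gene the summit belongs was not tested. In all, the 10 loci held 46 regions, of which 10 (21.7%) passed the threshold in all 4 tissues and 20 (43.5%) in 1 tissue only. Over all 89849 regions of the 4 lists, merged in the same way, the shares were 32% and 35.5%. Regions past the threshold in P-MSCs only were 8 of the 46 (17.4%, against 7.77% of all regions), and those in vBM-MSCs only were 2 (4.35%, against 6.8%). These shares are given as a description, with no test.

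Several loci overlap other annotated genes: Ptges, Il6, Hgf, Ido1 and Cd274. Smart-seq2 reads carry no strand, so reads of a gene and of one that overlaps it cannot be told apart where they share sequence. Of the overlapping genes, Plgrkt at Cd274 has a row of its own in the tables, with 551 to 1247 counts per library against 17 to 211 for Cd274.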

How the data were processed

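RNA-seq covered 11 libraries of MSCs from 4 tissues. The third vBM-MSC library of the labels was not used here. The deposited expected count, made by the authors, is an RSEM estimate for Smart-seq2 reads on mm10 and is not normalised. The deposited TPM values are scaled by RSEM for transcript length and library size. FPKM and length columns were not used. The ATAC-seq lists, 1 per tissue from pooled replicates, were made by the authors with Trim Galore, Bowtie, Picard, bedtools and MACS2 on mm10. They give the fold enrichment of each summit as a ratio and the −log10 q, and the deposited summit offset placed the summits. Tool versions are not given in the sources used here.

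After rounding to whole numbers, the quasi-likelihood test of edgeR 4.0.16 (R 4.3.3, two-sided, TMM normalisation) was run in 1 model with tissue as group. Genes needed a CPM of 1 or more in 2 or more libraries, with Benjamini-Hochberg adjustment over 12509 genes and a threshold of 0.05. The procedure was tested on simulated data with 200 changed genes. Alternatives were RLE size factors, DESeq2 1.42.0, no filter and a CPM of at least 5, limma 3.58.1 on log2(TPM + 1) and log2(TPM + 0.1), a replicate block, fits of the compared groups only and leaving out each library. Summits were assigned to a promoter within 1 kb of a curated RefSeq start of GRCm38.p6, whose chromosome lengths fit the lists, and to a locus within 10 kb of the gene. Exact binomial limits at 95% gave the counting intervals. Named were all 10 mediators, up to 3 genes per pathway list with the lowest p among the tissues and past the threshold, the 2 genes nearest to each mediator with a mean of at least 1 TPM, and defining markers of other cell types. The planned letters of 1 motif, TTGCNNCAA, are not those of the C/EBP site and were replaced by TTGCGCAA after the sequences had been seen. The mediators and the lists were chosen with earlier results of these data known. Each deposited expected count of the 10 mediators was whole. Of the marker lists, neutrophil and lymphocyte markers summed to 0.64 to 17.9 TPM, endothelial markers to 4.07 to 64.5 TPM and epithelial markers to 0.11 to 12.5 TPM per library.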

Additional observations from a re-analysis of the deposited data

How the results depend on the processing

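No fold change of a mediator called under any setting reversed. Of 1041 alternative values of the mediators' log2 fold changes, 16 lost and 26 gained a call, and the other 999 kept their side of the threshold. Of 168 alternative counts, 161 stayed within 1.5 times. The count of mediators called between A-MSCs and P-MSCs, 5, ranged from 3 to 6 when each library was left out: at 3, Cd274 and Il1rn had lost their calls, and at 6, without replicate 3 of the fBM-MSCs, Ptges had gained one. The share of all genes called there was 21.6% to 25.4% without an A-MSC or P-MSC library and 34.9% without replicate 3 of the fBM-MSCs, against 30.9% with all libraries. Between fBM-MSCs and vBM-MSCs the count, 5, fell to 3 in a fit of these groups only, where there are 5 libraries to estimate the spread and 305 genes in all were called, against 1601 in the model of 4 tissues. Between A-MSCs and P-MSCs such a fit called 6 mediators, gaining Ptges and Ptgs2 and losing Il1rn. Ptges gained a call in 6 of 19 alternatives there. A fit of the compared groups only could not give another value among the 4 tissues or for marrow against non-marrow MSCs, which use every library. The total between fBM-MSCs and vBM-MSCs was 610 genes without replicate 1 of the vBM-MSCs, while the 5 mediators were called there too. At a −log10 q of at least 20, 3 mediators in fBM-MSCs and 4 in A-MSCs had a promoter summit, in place of 8 and 7, while the shares of all genes fell from 87.1% and 89.6% to 63.6% and 70.5%. No label says whether replicate numbers pair the libraries, and correlations cannot settle it with 2 or 3 libraries per tissue. The deviations of 1 of 15 same-numbered pairs correlated above 0.1 (−0.038 to 0.159), and 6 of 11 libraries correlated best with their own number. With the replicate block, 6 mediators were called between fBM-MSCs and vBM-MSCs, adding Il1rn, and 4 between A-MSCs and P-MSCs, without Cd274 (adjusted p = 0.058). Of all genes, 1326 were called with the block between the marrow groups and 3863 (30.9%) between A-MSCs and P-MSCs. With 2 libraries of vBM-MSCs, leaving 1 out assumes that the lone library varies like the other groups. Hgf, Cd274, Nos2 and Ido1 had at most 211 counts in any library, and whether depth or the spread between libraries limits their calls was not tested.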
